A study of Mus musculus with 9 samples.

Results

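The 7 subunits of respiratory complex I whose genes lie in mitochondrial DNA (mt-Nd1, mt-Nd2, mt-Nd3, mt-Nd4, mt-Nd4l, mt-Nd5 and mt-Nd6) were followed in matured mouse oocytes. Their rows were found by matching the Ensembl identifiers of the deposited table to gene symbols, and all 7 were among its 22526 genes. Messenger RNA had been measured in 9 libraries, 3 from an NMN group (nicotinamide mononucleotide supplementation, a precursor of the coenzyme NAD), 3 from an aged group and 3 from a young group. ICR mice, which are outbred, gave the oocytes of all 3 groups, and these were at metaphase II, the stage at which the ovulated egg waits for fertilisation. The question behind the series is what maternal age does to oocytes and what NMN changes in them. The ages of the mice, the age of the NMN group, the dose of NMN and the number of oocytes or mice behind a library are not given in the sources used here. Nothing says that libraries of a group came from separate mice, so p-values measure the spread between libraries, and that spread may be technical.

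Complex I, NADH dehydrogenase, takes electrons from NADH, passes them to ubiquinone and pumps protons across the inner mitochondrial membrane. The mitochondrially encoded subunits form the core of its membrane arm, and all other subunits are made from nuclear genes. Mitochondrial DNA is transcribed into long precursors that are cut into single messengers, and most of these receive a short poly(A) tail. The oocyte inherits and passes on this DNA, and it depends largely on oxidative phosphorylation for its energy.

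The ends of the 7 reading frames are shown because they bear on how far each mRNA can be counted apart from its neighbours. They are the last 33 bases of each gene in the GENCODE M21 transcripts (build GRCm38), 5′ to 3′, with the stop codon, or the part of it that the gene encodes, in capitals.
mt-Nd1: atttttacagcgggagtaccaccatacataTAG
mt-Nd2: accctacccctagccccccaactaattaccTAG
mt-Nd3: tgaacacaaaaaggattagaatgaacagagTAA
mt-Nd4: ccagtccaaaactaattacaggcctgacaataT
mt-Nd4l: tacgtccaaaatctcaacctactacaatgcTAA
mt-Nd5: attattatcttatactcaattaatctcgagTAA
mt-Nd6: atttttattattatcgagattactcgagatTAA
The mt-Nd4 gene ends in a single base of its stop codon, and the poly(A) tail is known to complete such codons. The lengths of the genes were 957 nt (mt-Nd1), 1038 nt (mt-Nd2), 348 nt (mt-Nd3), 1378 nt (mt-Nd4), 297 nt (mt-Nd4l), 1824 nt (mt-Nd5) and 519 nt (mt-Nd6). Start codons were ATG in mt-Nd4, mt-Nd4l and mt-Nd6, GTG in mt-Nd1, ATA in mt-Nd2, ATT in mt-Nd3 and ATC in mt-Nd5.

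The genes overlap at 2 places. The end of mt-Nd4l and the start of mt-Nd4 share 7 bases on the same strand, shown in capitals, and both proteins are known to be read from 1 joint messenger.
mt-Nd4l and mt-Nd4: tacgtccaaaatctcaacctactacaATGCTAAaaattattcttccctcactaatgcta
The ends of mt-Nd5 and mt-Nd6 share 14 bases on opposite strands, shown in capitals and read along mt-Nd5.
mt-Nd5 and mt-Nd6: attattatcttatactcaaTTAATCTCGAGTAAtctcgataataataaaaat
mt-Nd6 is the single member on the opposite strand. Its messenger held 28.1% G and 5.97% C, whereas those of the other members held 8.0 to 11.6% G and at least 22.1% C. The library method, Smart-seq2, does not keep the strand, so reads of mt-Nd6 and of RNA transcribed against it cannot be told apart.

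The libraries held between 16.3 M and 19.3 M reads (M, the prefix mega), a depth estimated from the steps between low values. With it the FPKM (fragments per kilobase of gene and M reads) of the members were turned back into reads, and all 24 member values under 1000 reads came out whole within 0.02 reads. The 7 members together took 0.18, 0.195 and 0.179% of the reads in NMN replicates 1 to 3. They took 0.127, 0.22 and 0.113% in aged replicates 1 to 3 and 0.244, 0.241 and 0.254% in young replicates 1 to 3. The aged group thus held both the 2 lowest libraries and 1 library, replicate 2, above the NMN libraries.

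Members formed 2 classes by level. mt-Nd1, mt-Nd2, mt-Nd4, mt-Nd5 and mt-Nd6 had at least 496 reads and 55.2 FPKM in every library, where the counting error of 496 reads is 4.49%. mt-Nd3 and mt-Nd4l had at most 4 reads in any library and stayed below the minimum for testing, 1 FPKM in at least 3 libraries. The other 5 passed that minimum in all 9 libraries, so the filter did not select them by group. In each group mt-Nd1 was highest, followed by mt-Nd2 and mt-Nd4, and mt-Nd5 and mt-Nd6 came next with overlapping ranges. In the aged libraries the ranges of mt-Nd1 and mt-Nd2 also overlapped, as did those of mt-Nd4 and mt-Nd6, although the higher of each pair was higher in all 3 libraries.

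**Figure D1:**
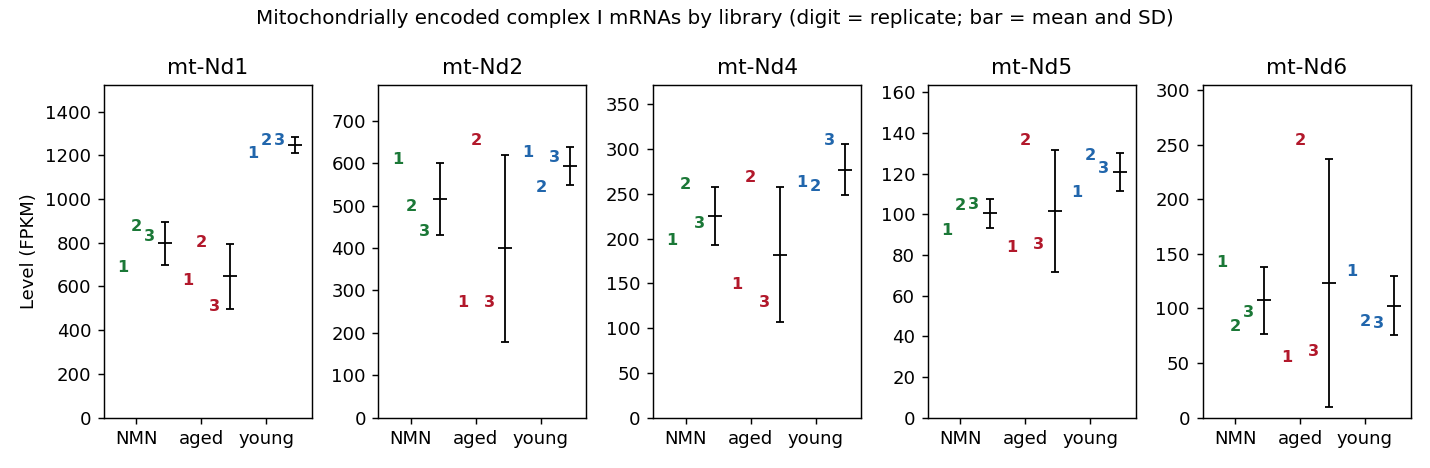
Level of the 5 tested complex I mRNAs in FPKM, one panel per gene with its own axis from 0. Digits are the replicates of the NMN, aged and young groups, and bars give the group mean and SD (n = 3). Young libraries lie above all others for mt-Nd1, and aged replicate 2 lies above aged replicates 1 and 3 in every panel.

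Aged replicate 2 stood apart in these mRNAs and in markers of other cells. The 11 measured markers of cumulus and granulosa cells, of 12 listed, summed to 21.8 FPKM in aged replicate 2 and to between 3.47 and 7.37 FPKM in the other 8 libraries. Among them Ptx3, Inha, Fst, Tnfaip6 and Foxl2 were above 0 in aged replicate 2 only, Foxl2 at 0.094 FPKM. Inhba, Has2, Fshr and Star were also highest there. Cyp19a1 went the other way, at 3.03 FPKM in aged replicate 2 and 3.05 to 6.205 FPKM in the other 8 libraries. Cyp19a1 made up most of the sum in these 8 libraries. Ptgs2, at 0.483 FPKM in aged replicate 2, was below its 0.565 FPKM in young replicate 2. The 10 oocyte markers, all measured, summed to 4484 to 5709 FPKM in NMN, 5379 to 7230 FPKM in aged and 4440 to 5170 FPKM in young libraries. Among these, Zp1, Zp2, Zp3 and Ooep were highest in aged replicate 2, and Gdf9 and Kit were lowest there. Blood and immune markers (2 of 5 measured) summed to at most 2.51 FPKM in each library. Oviduct markers (3 of 3) summed to 2.505 FPKM in aged replicate 2 and to between 0.679 and 2.15 FPKM in the other 8 libraries. Krt8 (0.749 FPKM) and Ovgp1 (0.552 FPKM) were highest in aged replicate 2, whereas Epcam, at 1.205 FPKM, was not. The part of these cells in the levels of aged replicate 2 was not tested.

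Aged oocytes held less mt-Nd1 mRNA than young oocytes, and the other 4 tested members did not pass the test, an adjusted p under 0.05 over all tested genes. mt-Nd1, a subunit at the junction of the membrane arm with the matrix arm, was at 627, 802 and 509 FPKM in aged replicates 1 to 3, against 1206, 1268 and 1266 FPKM in young replicates 1 to 3. The groups did not overlap, and the 3 young libraries lay close together. The mean was 646 ± 147 FPKM in aged and 1247 ± 34.7 FPKM in young libraries (SD, n = 3 each), and mt-Nd1 fell by 1.04 ± 0.19 on the log2(FPKM + 1) scale (SE, limma adjusted p = 0.0265). FPKM is a share of all mRNA in a library, so fewer mitochondria, less mt-Nd1 RNA in each and more of other mRNAs cannot be told apart. Likewise, fewer cells of a type and less RNA per cell cannot be told apart. The call of mt-Nd1 was lost without young replicate 1, 2 or 3 (adjusted p = 0.083, 0.115 and 0.128), without aged replicate 3 (0.0893) and without NMN replicate 3 (0.0522).

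mt-Nd2, mt-Nd4 and mt-Nd5 are related, antiporter-like subunits of the membrane arm. mt-Nd2 was at 272, 654 and 271.5 FPKM in aged replicates 1 to 3, against 625, 542 and 613 FPKM in young replicates 1 to 3. Aged replicates 1 and 3 lay below all young libraries. Aged replicate 2 lay above them all in deposited FPKM, and within the young range after the scaling used for the test, which divides it by 1.12. The log2 change was -0.76 ± 0.27 (SE, limma adjusted p = 0.178).

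mt-Nd4 was at 149, 268 and 129 FPKM in aged replicates 1 to 3, against 263, 258 and 310 FPKM in young replicates 1 to 3. Its log2 change was -0.74 ± 0.24 (SE, limma adjusted p = 0.152), and aged replicate 2 lay within the young range in deposited FPKM. After scaling it lay 0.25 below the young mean on the log2 scale, against 0.12 below for the lowest young library. mt-Nd5 was at 83.7, 136 and 85.1 FPKM in aged replicates, against 110.5, 129 and 123 FPKM in young replicates. In deposited FPKM aged replicate 2 was the highest of the 6 libraries and aged replicates 1 and 3 the lowest, whereas after scaling aged replicate 2 lay 0.03 below the young mean and within the young range. The log2 change was -0.34 (95% interval -0.76 to 0.08, limma adjusted p = 0.364).

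mt-Nd6, a small subunit that is the only one read from the opposite strand, was at 55.2, 254 and 60.6 FPKM in aged replicates 1 to 3, against 134, 87.7 and 86.5 FPKM in young replicates 1 to 3. Aged replicate 2 lay far above every other library, and aged replicates 1 and 3 lay below all. The mean was 123 ± 113 FPKM in aged and 103 ± 27.0 FPKM in young libraries (SD, n = 3). On the log2 scale the difference had the other sign, at -0.15 (95% interval -1.15 to 0.86, limma adjusted p = 0.892), and it was 0.04 without young replicate 1, 0.19 without aged replicate 1 and 0.15 without aged replicate 3.

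In all, 1 of the 5 tested members was called lower in aged against young oocytes and 0 were called higher. Over all 9168 tested genes 0.916% were called lower and 1.27% higher, 2.18% in all. At an unadjusted p under 0.05 there were 3 of the 5 members, mt-Nd1, mt-Nd2 and mt-Nd4, and 18.3% of all genes. In deposited FPKM the aged libraries lay below all young libraries for 1 of the 5 members, mt-Nd1, and for 11.2% of all genes, and they lay above them for 0 members and 12.6% of all genes. The log2 changes of the 5 members were all negative, with a median of -0.74, against a median of -0.05 over all tested genes. Without aged replicate 2, mt-Nd2 had a log2 change of -1.11 (limma adjusted p = 0.0122) and mt-Nd4 one of -0.98 (adjusted p = 0.0348), so that 3 of the 5 passed together with mt-Nd1, where 2.35% of all genes were called. In the same fit mt-Nd5 was at -0.50 (adjusted p = 0.156) and mt-Nd6 at -0.78 (adjusted p = 0.13). Aged replicate 2 was the highest aged library for each of the 5, so leaving it out lowers their aged means and gives no separate support. Without any other single library mt-Nd2 had an adjusted p of 0.191 to 0.42 and mt-Nd4 one of 0.156 to 0.413 in limma. With limma's quality weights per library, which count a library that deviates for less, mt-Nd1, mt-Nd2, mt-Nd4 and mt-Nd5 passed (adjusted p from 0.00101 to 0.0316). So did 906 of the 9168 genes tested. mt-Nd2 and mt-Nd4 were each called in 2 of 19 alternative settings, this one and the fit without aged replicate 2.

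**Figure D2:**
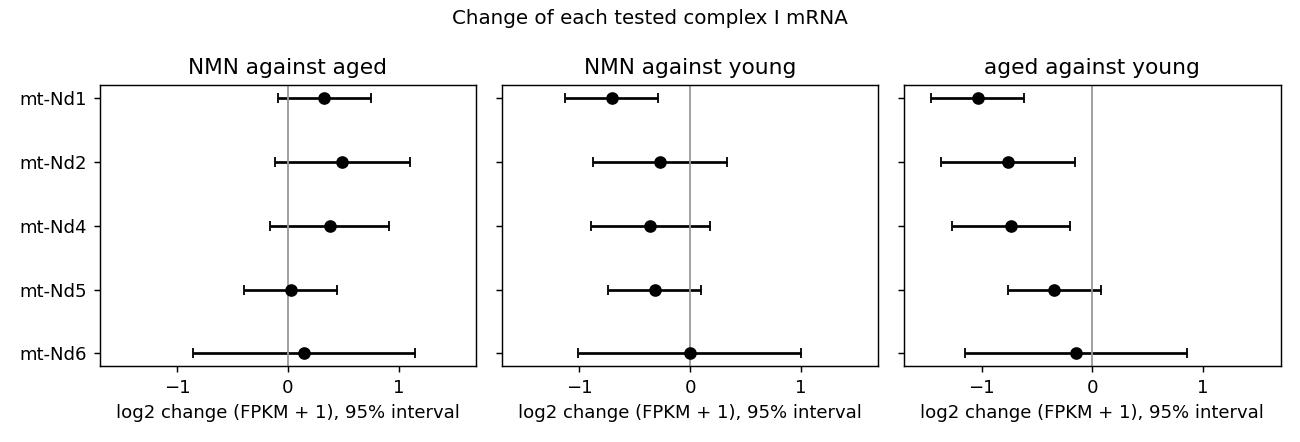
Log2 change of the 5 tested members on the log2(FPKM + 1) scale, with 95% intervals from the limma fit over all 9 libraries. The first panel compares NMN with aged, the second NMN with young and the third aged with young oocytes. The intervals of mt-Nd1 lie below 0 against young oocytes, with changes of -1.04 for aged and -0.71 for NMN libraries. For aged against young oocytes those of mt-Nd2 (-1.37 to -0.155) and mt-Nd4 (-1.27 to -0.2) also lie below 0, although neither gene passed the test. The intervals for NMN against aged all include 0.

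NMN oocytes had higher means than aged oocytes for 4 of the 5 tested members on the log2 scale by 0.15 to 0.49 and for mt-Nd5 by 0.02, and no member passed the test. On the FPKM scale the ratio of the means, NMN over aged, was below 1 for mt-Nd5 (0.988) and mt-Nd6 (0.871). mt-Nd1 was at 688, 874 and 831 FPKM in NMN replicates 1 to 3, against 627, 802 and 509 FPKM in aged replicates 1 to 3. The groups overlapped, and the mean was 798 ± 97.5 FPKM in NMN and 646 ± 147 FPKM in aged libraries (SD, n = 3). The log2 change was 0.33 (95% interval -0.09 to 0.75, limma adjusted p = 0.543). mt-Nd2 was at 608, 498 and 440 FPKM in NMN replicates, and each of these deposited values lay between aged replicate 2 and aged replicates 1 and 3. Its log2 change of 0.49 had an interval of -0.12 to 1.10.

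mt-Nd4 was at 198, 261 and 217 FPKM in NMN replicates 1 to 3, again between aged replicate 2 and the other aged libraries in deposited FPKM, although NMN replicate 2 lay above aged replicate 2 after scaling, with a log2 change of 0.38 (95% interval -0.16 to 0.91). mt-Nd5 was at 92.1, 104 and 105 FPKM in NMN replicates. Its log2 change of 0.02 (95% interval -0.40 to 0.44) turned to -0.04, -0.06 and -0.04 without aged replicate 1, aged replicate 3 or NMN replicate 2. mt-Nd6 was at 142, 83.7 and 95.9 FPKM in NMN replicates, with a log2 change of 0.15 (95% interval -0.86 to 1.15), which turned to -0.19, -0.15 and -0.05 without aged replicate 1, aged replicate 3 or NMN replicate 1. The adjusted p of the 5 members lay between 0.53 and 0.976 in limma, and 0 of them had an unadjusted p under 0.05, which 11.3% of all genes had. Over all genes 0.12% were called higher and 0.0982% lower, 0.218% in all, and the groups did not overlap, with NMN above for 9.09% and below for 6.51% of genes, and for 0 members. Without aged replicate 2, 4 of the 5 members and 15.2% of all genes had an unadjusted p under 0.05, and the 5 log2 changes were all positive with a median of 0.62. Leaving out this library, the highest aged one for each of the 5, raises these changes. In that fit 0 members and 0.29% of all genes were called, and mt-Nd2 had the largest change of a member, 0.84 (adjusted p = 0.0897). The 5 intervals all include 0, and their upper ends, from 0.44 to 1.15, allow changes of that size.

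Set against young oocytes, NMN oocytes had less mt-Nd1 in every library, a difference that did not pass the correction over all genes. mt-Nd1 was at 798 ± 97.5 FPKM in NMN and 1247 ± 34.7 FPKM in young libraries (SD, n = 3), and the highest NMN library, at 874 FPKM, lay below the lowest young library, at 1206 FPKM. The log2 change was -0.71 (95% interval -1.13 to -0.29, limma unadjusted p = 0.00356, adjusted p = 0.283). With quality weights per library it passed (adjusted p = 0.0473), 1 of 73 genes called in that fit. mt-Nd5 also lay lower without overlap, at 92.1 to 105 FPKM in NMN and 110.5 to 129 FPKM in young libraries (log2 change -0.32, 95% interval -0.74 to 0.10).

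Log2 changes of mt-Nd2 and mt-Nd4 between NMN and young oocytes were -0.27 (95% interval -0.88 to 0.34) and -0.36 (95% interval -0.90 to 0.18), with overlapping libraries. mt-Nd6 averaged 107 ± 30.9 FPKM in NMN and 103 ± 27.0 FPKM in young libraries (SD, n = 3), and its log2 change lay between -0.20 and 0.18 over the settings tried. Of the 5 members 0 passed in limma and 1, mt-Nd1, had an unadjusted p under 0.05, as did 8.13% of all genes. Of all genes 0.0109% were called lower and 0.0654% higher, 0.0764% in all. In deposited FPKM 2 of the 5 members lay lower without overlap and 0 higher, against 6.99% and 9.58% of all genes. These values come from the fit without a block. With the replicate number as a block, 0 genes were called, 687 had an unadjusted p under 0.05, and mt-Nd1 had an adjusted p of 0.423. The comparisons of NMN and of aged with young oocytes share the 3 young libraries, and the comparisons of NMN with aged and aged with young share the 3 aged libraries.

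Proportions among the mitochondrial messengers do not depend on the scaling between libraries. Each member was expressed as its share of the summed FPKM of the 12 mitochondrially encoded mRNAs in the table (mt-Atp8 was not analysed here). Reads of mt-Nd4, and in the sum those of mt-Nd3, mt-Nd4l, mt-Co1, mt-Co2, mt-Co3 and mt-Atp6, may be counted under nuclear copies, which are described below. The shares are therefore those of the values as assigned and not of the messengers themselves. mt-Nd1 made up 18.5, 19.3 and 20.8% in NMN replicates 1 to 3, 22.0, 16.7 and 19.4% in aged replicates 1 to 3, and 23.5, 23.7 and 21.2% in young replicates 1 to 3. All NMN libraries lay below all young libraries, and aged replicate 1 lay within the young range. mt-Nd5 made up 2.47, 2.30 and 2.63% in NMN replicates, 2.94, 2.83 and 3.24% in aged replicates, and 2.15, 2.41 and 2.05% in young replicates. The aged libraries, replicate 2 included, thus held the highest share of mt-Nd5, above all NMN and all young libraries.

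The share of mt-Nd4 was narrow in all groups, at 5.50 ± 0.22% in NMN, 5.24 ± 0.33% in aged and 5.05 ± 0.19% in young libraries (SD, n = 3). The NMN libraries lay above the young libraries without overlap. mt-Nd2 had 12.8 ± 3.10% in NMN, 11.2 ± 2.14% in aged and 10.9 ± 1.15% in young libraries, with 16.3% in NMN replicate 1 and 13.6% in aged replicate 2 as the highest values. mt-Nd6 had 3.82, 1.85 and 2.40% in NMN replicates, 1.94, 5.28 and 2.30% in aged replicates and 2.61, 1.64 and 1.45% in young replicates. The two-sided exact permutation p for shares, over 21 comparisons of a member between 2 groups, was 0.1 where groups did not overlap, the smallest possible with 3 libraries against 3. That was so for mt-Nd5 in aged against young and NMN against aged oocytes, and for mt-Nd1 and mt-Nd4 in NMN against young oocytes, with a Benjamini-Hochberg adjusted p of 0.525 in each case.

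mt-Nd6 was high in other libraries than most members. Relative to the young mean it was 1.12 higher on the log2 scale in aged replicate 2, 0.39 higher in NMN replicate 1 and 0.37 higher in young replicate 1. mt-Rnr1, the small ribosomal RNA of the mitochondrion, was 2.07 higher in aged replicate 2 and 0.96 higher in NMN replicate 1 by the same measure. Over the 9 libraries the log2 levels of mt-Nd6 and mt-Rnr1 had a Pearson r of 0.859, and r was 0.674 over the 8 libraries without aged replicate 2. mt-Nd6 had an r of 0.146 with mt-Nd1, 0.391 with mt-Nd5, 0.429 with mt-Nd4 and 0.725 with mt-Nd2. Over the 8 libraries without aged replicate 2 these values were 0.437 (mt-Nd1), 0.268 (mt-Nd5), 0.52 (mt-Nd4) and 0.843 (mt-Nd2), and mt-Co2 and mt-Co3 (0.802 each) and mt-Atp6 (0.718) were then also closer to mt-Nd6 than mt-Rnr1 was. Over all 9 libraries mt-Nd1, mt-Nd4 and mt-Nd5 correlated at 0.831 to 0.89 with each other, and mt-Nd4 correlated with mt-Co1, a subunit of cytochrome oxidase, at 0.982. These values describe 9 libraries, of which those of 1 group share their condition and all share the scaling.

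**Figure D3:**
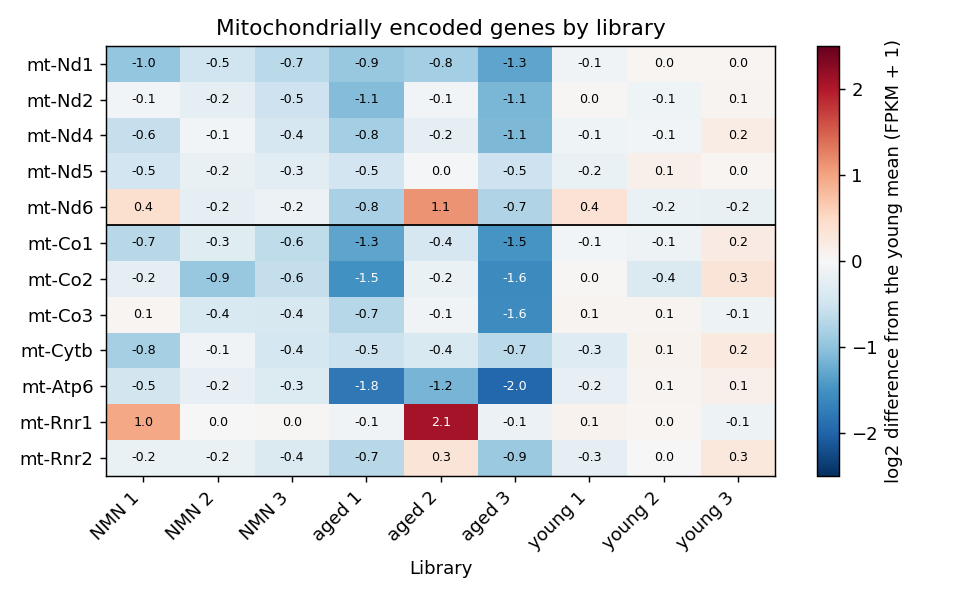
Log2 level of each tested mitochondrially encoded gene in each library minus the mean of the young libraries, on the log2(FPKM + 1) scale, with complex I members above the line and other mRNAs and rRNAs below it. Most mRNAs are low in aged replicates 1 and 3, whereas mt-Nd6 and mt-Rnr1 are high in aged replicate 2 (1.12 and 2.07) and NMN replicate 1 (0.39 and 0.96).

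Pseudogenes bear on the 2 members that were nearly unread. Pieces of mitochondrial DNA have been copied into nuclear chromosomes in evolution, and a read from a stretch that is identical in both cannot be assigned. The annotated transcripts of all nuclear genes were searched for each window of 100 bases of the members. None of the windows of mt-Nd1, mt-Nd5 and mt-Nd6 was found, and 3.19% of those of mt-Nd2 were found in Gm13339. In contrast, 97.6% of the windows of mt-Nd3 were found in Gm28438, 98.5% of those of mt-Nd4l in Gm10222 and 60.8% of those of mt-Nd4 in Gm28439. These 3 pseudogenes are neighbours on chromosome 1 in the order of their mitochondrial counterparts. mt-Nd4l was identical to Gm10222 over 294 of its bases and mt-Nd4 to Gm28439 over its first 876. With shorter windows, of 50 bases, again none of mt-Nd1 and mt-Nd6 was found. Of those of mt-Nd2 8.19% were then found in Gm13339, and of those of mt-Nd5 7.61% in Gm11407 and Gm4076.

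Gm28438 matched mt-Nd3 over 345 bases with 1 substitution, T3C (mt-Nd3 has the first base named, and positions count from 1 at the start of the gene). The first 33 bases of both show it in capitals.
mt-Nd3: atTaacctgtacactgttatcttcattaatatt
Gm28438: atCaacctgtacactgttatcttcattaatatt

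The pseudogenes held more reads than these members. mt-Nd3 had 1, 0 and 1 reads in NMN, 1, 1 and 1 in aged and 4, 1 and 0 in young replicates 1 to 3. Gm28438 had 158, 95 and 145 reads in NMN, 192, 387 and 195 in aged and 124, 140 and 114 in young replicates. mt-Nd4l had 1, 1 and 0 reads in NMN, 2, 4 and 0 in aged and 2, 1 and 3 in young replicates. Gm10222 had 43, 26 and 43 reads in NMN, 50, 221 and 100 in aged and 44, 52 and 65 in young replicates. The near absence of reads from mt-Nd3 and mt-Nd4l is thus no measure of their mRNA, since reads of either source may be counted under the other name or under none. Their FPKM were at or near the floor, as 3 reads correspond to 0.448 to 0.53 FPKM for mt-Nd3 and 0.525 to 0.621 FPKM for mt-Nd4l, so no fold change is given.

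**Figure D4:**
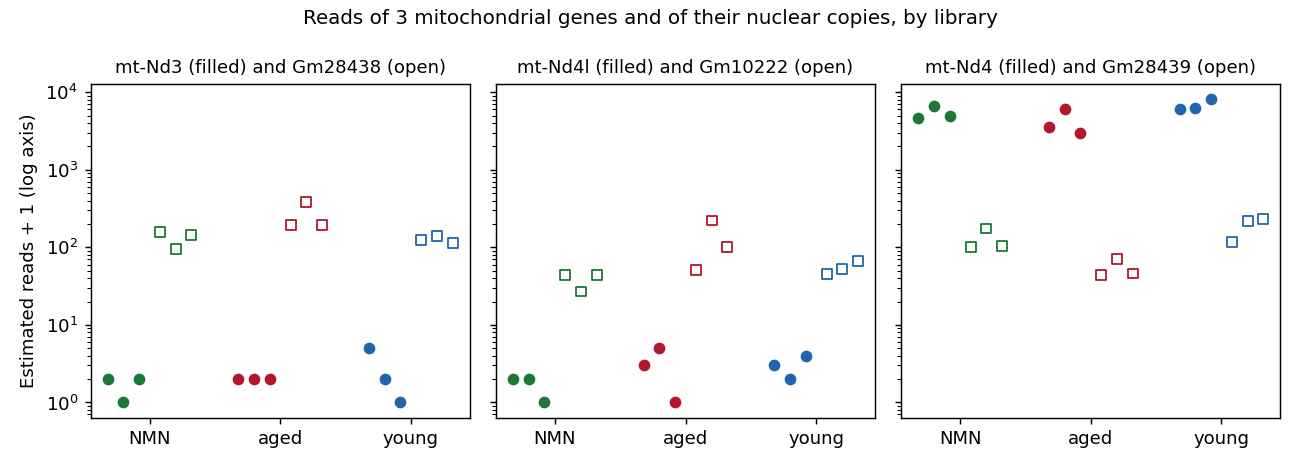
Estimated reads, plus 1, on a log axis for mt-Nd3, mt-Nd4l and mt-Nd4 (filled circles) and for their nuclear copies Gm28438, Gm10222 and Gm28439 (open squares) in the 3 libraries of the NMN, aged and young groups. mt-Nd3 and mt-Nd4l have at most 4 reads in any library, and their copies have 26 to 387.

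When the reads of each member were added to those of its nuclear copy, mt-Nd3 and mt-Nd4l became testable. The joint level of mt-Nd3 was 27.2, 14.6 and 25.4 FPKM in NMN, 32.0, 68.5 and 33.8 FPKM in aged and 22.0, 23.3 and 17.0 FPKM in young replicates 1 to 3. All aged libraries lay above all NMN and all young libraries, opposite to mt-Nd1, but the test was not passed (log2 change 0.93 ± 0.28 SE between aged and young, limma adjusted p = 0.124, and -0.92 ± 0.28 SE between NMN and aged libraries, adjusted p = 0.256). The joint level of mt-Nd4l was 8.81, 4.86 and 8.76 FPKM in NMN, 10.1, 46.5 and 20.2 FPKM in aged and 9.26, 10.3 and 11.9 FPKM in young replicates (adjusted p = 0.257 between aged and young and 0.208 between NMN and aged libraries). Adding the copies left mt-Nd2 and mt-Nd4 nearly where they were, each with a log2 change of -0.76 for aged against young. Gm28439 itself, the copy of mt-Nd4, fell in aged against young oocytes (2.83, 4.84 and 3.08 FPKM in aged, against 7.99, 14.4 and 13.6 FPKM in young replicates, log2 change -1.55 ± 0.28 SE, limma adjusted p = 0.0265). That call was lost without young replicate 2 or 3 or aged replicate 1 or 3 (adjusted p = 0.113, 0.128, 0.0552 and 0.088). Which of these reads come from the nucleus was not tested.

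Nuclear copies also covered other mitochondrial mRNAs. Those of which at least 97.6% of windows were found in nuclear transcripts were mt-Nd3, mt-Nd4l, mt-Co2, mt-Co3 and mt-Atp6. In young libraries their means were 0.28, 0.37, 15.5, 3.51 and 87.0 FPKM, and those of the 7 other mRNAs were 103 FPKM (mt-Nd6) to 1676 FPKM (mt-Cytb). mt-Nd4, with 60.8% of its windows shared, was at 277 FPKM. Levels of members with many shared windows therefore cannot be set against the others. The order of levels given above is kept for mt-Nd1, mt-Nd2 and mt-Nd5, which had few or no shared windows. mt-Nd6 also had none, but its reads cannot be told from those of RNA transcribed against it. Its mean lay above that of mt-Nd5 in NMN and aged libraries and below it in young libraries.

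**Figure D5:**
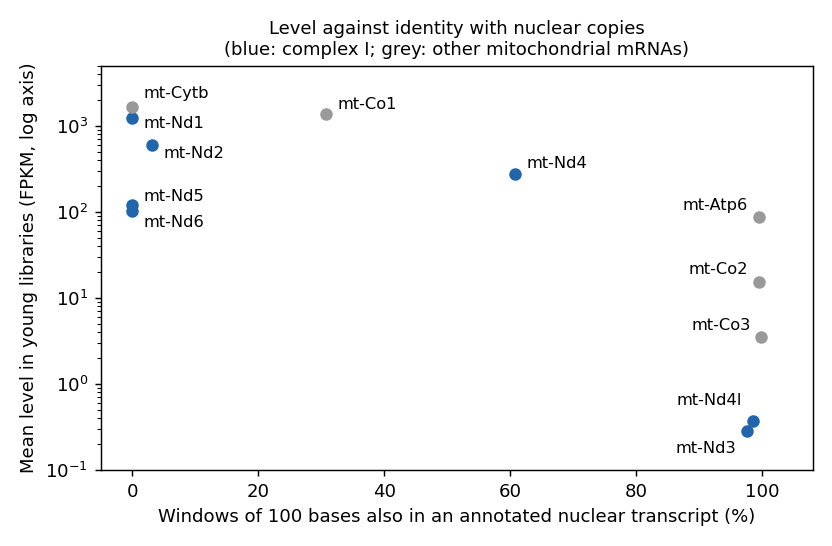
Mean level of the 12 mitochondrially encoded mRNAs in young libraries (FPKM, log axis) against the percentage of their windows of 100 bases that also occur in an annotated nuclear transcript. Complex I members are blue, other mRNAs grey. The 5 mRNAs at the right, mt-Nd3 and mt-Nd4l among them, have the 5 lowest means.

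Other messengers of mitochondrial DNA had log2 changes of the same sign as the tested members. Of the windows of 100 bases of mt-Co2, mt-Co3 and mt-Atp6, at least 99.5% were also found in nuclear transcripts. mt-Co3 had only 7 to 52 reads. All 5 tested ones (mt-Co1, mt-Co2 and mt-Co3 of cytochrome oxidase, mt-Cytb of complex III and mt-Atp6 of ATP synthase) had negative log2 changes in aged against young oocytes, with a median of -1.07, and 1 was called, mt-Atp6. All 5 had an unadjusted p under 0.05, against 18.3% of all genes. mt-Atp6 fell by 1.64 ± 0.22 on the log2 scale (SE, limma adjusted p = 0.0077), a call lost without young replicate 2 or 3 (adjusted p = 0.0515 and 0.0565). Its nuclear copy Gm10925 held more reads in each library and was also called lower (log2 change -1.34, limma adjusted p = 0.0196). That call was lost without young replicate 2 or 3 or aged replicate 3. The copies of mt-Co2 (Gm28661) and mt-Co3 (Gm28437) had log2 changes of -0.66 and -0.10 and were not called. Which of these reads come from the nucleus was not tested. For NMN against aged oocytes the median of the 5 mRNAs was 0.53 with 0 called, and for NMN against young oocytes it was -0.45 with 0 called. At an unadjusted p under 0.05 there were 1 and 0 of the 5 in the NMN comparisons, against 11.3% and 8.13% of all genes. Without aged replicate 2, the highest aged library for each of the 5, mt-Co1, mt-Co2 and mt-Atp6 were called lower in aged against young oocytes. In this comparison 2.35% of all genes were called. In the same fit mt-Atp6 was called higher in NMN against aged oocytes, where 0.29% of all genes were called. Leaving out aged replicate 2 lowers the aged means of these mRNAs and gives no separate support.

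The tested nuclear-encoded subunits of complex I had mostly positive log2 changes in aged against young oocytes, and 1 of them passed the test. Of 37 listed genes 36 were in the table and 19 were tested. The minimum, 1 FPKM in at least 3 libraries, can be met through the libraries where a gene is high. Ndufs5 met it only in NMN replicate 1 (1.45 FPKM) and aged replicates 2 and 3 (2.93 and 1.05 FPKM), against 0.121 to 0.278 FPKM in young libraries. The counts of signs and the medians of this list may thus partly follow from the filter. In aged against young oocytes 15 of the 19 had positive and 4 negative log2 changes, with a median of 0.65 against -0.05 over all genes, 1 was called higher and 0 lower, and 12 had an unadjusted p under 0.05, against 18.3% of all genes. The called gene was Ndufc2, an accessory subunit of the membrane arm, at 6.43, 15.1 and 7.80 FPKM in aged replicates 1 to 3, against 3.01, 1.53 and 2.14 FPKM in young replicates 1 to 3. It rose by 1.63 ± 0.32 on the log2 scale (SE, limma adjusted p = 0.036). The call ended, with adjusted p up to 0.14, when any 1 of 6 libraries (young replicates 1, 2 and 3, aged replicates 2 and 3, and NMN replicate 3) was left out. Ndufc2 was highest in aged replicate 2, the library with the highest sum of cumulus and granulosa markers. Without that library 0 of the 17 nuclear subunits then tested were called, and their median was 0.42. Of the 17, 7 had an unadjusted p under 0.05, as did 16.8% of all genes. The part of those cells in this pattern was not tested.

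In NMN against aged oocytes 15 of the 19 nuclear subunits had negative log2 changes, with a median of -0.29, and 0 were called. The smallest p was that of Ndufa8, an accessory subunit, at 2.76, 1.37 and 1.26 FPKM in NMN replicates, against 4.16, 6.28 and 4.11 FPKM in aged replicates (limma adjusted p = 0.167). Ndufb3 and Ndufc2 came next, at adjusted p = 0.243 and 0.377. In NMN against young oocytes 15 of the 19 had positive changes, with a median of 0.28 and 0 called, and the smallest p were those of Ndufc2, Ndufv1, which binds NADH, and Ndufs5 (adjusted p from 0.561 to 0.64). At an unadjusted p under 0.05 there were 3 and 1 of the 19 in these comparisons, against 11.3% and 8.13% of all genes. These genes were low, and the log2(FPKM + 1) scale understates their changes.

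Assembly factors and the machinery of mitochondrial transcription had 0 calls in each of the 3 comparisons over all 9 libraries. Of 19 assembly factors 10 were tested, and their median log2 change was -0.12 between aged and young oocytes, 0.0041 between NMN and aged oocytes and -0.0049 between NMN and young oocytes. Timmdc1, an assembly factor of the membrane arm, had the smallest p in aged against young oocytes, at 1.34 ± 1.40 FPKM in aged and 3.35 ± 1.21 FPKM in young libraries (SD, n = 3, limma adjusted p = 0.165). Dmac2 and Ndufaf8 followed at 0.172 and 0.307. For NMN against aged oocytes it was Ndufaf7, a methyltransferase that modifies a complex I subunit, at 18.7 ± 0.46 FPKM in NMN and 13.4 ± 2.05 FPKM in aged libraries (adjusted p = 0.392). At an unadjusted p under 0.05 there were 2 of the 10 assembly factors between aged and young, 1 between NMN and aged and 0 between NMN and young oocytes. The shares of all genes were 18.3%, 11.3% and 8.13%. Timmdc1 was at 0.032, 2.82 and 1.18 FPKM in aged replicates 1 to 3 and at 2.41, 2.93 and 4.72 FPKM in young replicates. Without aged replicate 2, which lay within the young range, Timmdc1 was called lower in aged against young oocytes. In that fit 2.35% of all genes were called. Leaving out this library, the highest aged one for Timmdc1, lowers the aged mean and gives no separate support.

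Of 32 genes of mitochondrial transcription, RNA processing and DNA maintenance 21 were tested. Fastkd2, an RNA-binding protein of the mitochondrial matrix, was at 1.93, 1.15 and 1.43 FPKM in aged replicates 1 to 3, against 3.25, 4.44 and 4.94 FPKM in young replicates 1 to 3. The groups did not overlap, and the log2 change of -1.10 ± 0.25 (SE) did not pass the threshold (limma adjusted p = 0.0578). Rexo2, an oligoribonuclease, and Fastkd1 followed, at adjusted p = 0.13 and 0.149. Trmt10c, a subunit of mitochondrial RNase P, had the smallest p for NMN against aged oocytes, at 5.42 ± 0.59 FPKM in NMN and 18.1 ± 11.8 FPKM in aged libraries (adjusted p = 0.331). It was at 29.7, 6.08 and 18.6 FPKM in aged replicates 1 to 3, so aged replicate 2 lay within the NMN range, 5.04 to 6.10 FPKM. Without that library, Trmt10c was called higher in aged against young and lower in NMN against aged oocytes. In these comparisons 2.35% and 0.29% of all genes were then called. Leaving out aged replicate 2, the lowest aged library for Trmt10c, raises the aged mean and gives no separate support. At an unadjusted p under 0.05 there were 5 of the 21 genes between aged and young, 3 between NMN and aged and 1 between NMN and young oocytes. The shares of all genes were 18.3%, 11.3% and 8.13%.

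Likeness to the members was measured as Pearson's r over the 9 libraries between each of the other 9163 tested genes and the mean log2 level of the 5 tested members. Among named genes with a mean of at least 10 FPKM the highest were mt-Co1 (r = 0.961, rank 1), Cfdp1 (0.952, rank 2), mt-Co2 (0.915, rank 9), Cecr2 (0.913, rank 10) and mt-Rnr2 (0.913, rank 11). Cfdp1 and Cecr2 are nuclear genes of chromatin proteins. mt-Co3 ranked 24, mt-Atp6 68, mt-Cytb 380 and mt-Rnr1 1977. Gm28438 and Gm10222, which carry the reads alike to mt-Nd3 and mt-Nd4l, ranked 6442 (r = -0.246) and 4594 (r = -0.028). These values describe 9 libraries of 3 groups and carry no test.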

How the data were processed

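The authors deposited 1 table of FPKM per gene for the 9 libraries. Smart-seq2 with oligo(dT) priming gave the libraries, which were sequenced on a DNBseq instrument, per the labels' protocols. Per the submitters' processing notes, Bowtie2 2.2.5, RSEM and build mm9 were used, with no role stated for each. How reads shared by near-identical genes were assigned is not given in the sources used here. Gene symbols for 22487 of the 22526 identifiers and all sequences came from GENCODE M21 (GRCm38). Coordinates are not given because the builds differ.

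The members and gene lists were chosen with earlier results of these data known. Depth and reads were estimated from the steps of low FPKM at the annotated lengths (2659 genes with 1 transcript longer than 1500 nt). Of values below 20 reads in these genes, 96.2 to 97.8% were whole within 0.02 reads. Floors are 3 reads, and floors and counting errors cover counting only.

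The 9168 genes that reached 1 FPKM in 3 or more libraries were scaled by trimmed-mean factors and fitted as log2(FPKM + 1) in limma 3.58.1 (R 4.3.3) over all 9 libraries, with robust moderation towards a variance trend. Benjamini-Hochberg adjustment ran over all tested genes, with a threshold of 0.05. Fold changes on this scale understate those of low genes. The fit was tested on simulated data. Shares were compared by exact permutation. Beyond the members, called genes of each list and otherwise the 3 with the smallest p could be named, and for likeness the highest-ranked named genes above 10 FPKM.

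Libraries of the same number in NMN and young groups deviated together, mostly in replicate 1 (r = 0.497, 0.119 and 0.142 over genes for replicates 1, 2 and 3). The fit with the replicate block is therefore given beside that comparison. The printed values come from the fit without it. The labels do not say what a number marks. Other scalings, pseudocounts, filters, library weights, a replicate block, fits of 2 groups and fits without each library were tried, and, chosen after seeing the data, sums with nuclear copies and list counts without aged replicate 2.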

Additional observations from a re-analysis of the deposited data

How the results depend on the processing

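The number of genes called in aged against young oocytes, 200 over all 9 libraries, was 31 with no filter on low values, 97 with a minimum of 10 FPKM, 906 with quality weights, 132 with the 2 groups fitted alone and 20 (without young replicate 2) to 210 without 1 library. For NMN against aged oocytes, 20 genes became 9 with no filter, 3 with a minimum of 10 FPKM, 163 with quality weights, 6 with 2 groups alone and 5 to 26 without 1 library. For NMN against young oocytes, 7 genes became 3 as deposited, 0 with no filter (1260 at an unadjusted p under 0.05), 1 with a minimum of 10 FPKM, 73 with quality weights, 17 with 2 groups alone and 1 to 14 without 1 library. With the replicate block, 73, 15 and 0 genes were called in these comparisons, and mt-Nd1 had an adjusted p of 0.0621 in aged against young oocytes. Same-numbered libraries had r of -0.339, -0.267 and 0.314 for aged and young and of -0.372, -0.359 and 0.199 for NMN and aged. For NMN and young it was 0.497, 0.119 and 0.142, positive for each number. In NMN against young oocytes 0 members were called without the block, so it had no call of a member to remove.

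mt-Nd1 was lower in aged oocytes under each of the 19 settings (log2 change -1.19 to -0.90) and called in 12. With no filter its adjusted p was 0.0857. Signs changed for mt-Nd6 in NMN against young oocytes as deposited (0.0558) and with quality weights (0.0225), and, with rRNAs in the denominator, for the shares of mt-Nd2 (-0.686 points) and mt-Nd4 (-0.247 points) in aged against young oocytes. Without 1 library, mt-Nd6 spanned -0.78 to 0.19 (aged against young), -0.19 to 0.78 (NMN against aged) and -0.20 to 0.18 (NMN against young), and mt-Nd5 spanned -0.0592 to 0.18 (NMN against aged). The shares spanned -1.17 to 1.51 points for mt-Nd1, -0.169 to 2.83 for mt-Nd2 and -1.1 to 0.569 for mt-Nd6 in NMN against aged oocytes, and -0.925 to 1.09 for mt-Nd2 in aged against young oocytes. The cause was not tested. Scaling alternatives moved the median of all genes by less than 0.1 on the log2 scale. Depth does not limit the 5 tested members, and it leaves mt-Nd3 and mt-Nd4l near the floor.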
